A study of Mus musculus with 6 samples.

Results

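Genes of epithelial cell adhesion were followed in the future anterior hard palate of C57BL/6 mouse embryos at E14.5. The genes were chosen by symbol alone: the numbered claudins, the desmogleins and desmocollins, plakophilins (Pkp1 to Pkp3), Dsp, Jup, the beta connexins (Gjb), Perp, Cdh1, Epcam, Ocln and Tjp3. The rule found 50 genes among the 23420 of the count files: 25 claudins, 9 desmosomal cadherins, 5 desmosomal plaque genes, 6 beta connexins and 5 others. The mutant embryos were Shox2Cre/-;Nkx2.5F/F and lacked an intact copy of Shox2, a homeobox gene of the anterior palate, and the control embryos were Shox2Cre/+;Nkx2.5F/F. Each group had 3 libraries of bulk RNA. Both groups carried the Cre inserted at Shox2 together with 2 floxed Nkx2-5 alleles, so the controls, although titled wild type, had 1 functional Shox2 allele and could lose Nkx2-5 in Shox2-expressing cells. Whether each library came from 1 embryo or a pool is not stated, so the p-values cover only library-to-library spread, which may be technical.

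Epithelial cells are held together by several kinds of junction. Claudins and occludin form the tight junction strands that seal the space between cells, with zonula occludens proteins such as Tjp3 as scaffolds below them. E-cadherin (Cdh1) makes the adherens junction. In desmosomes, desmogleins and desmocollins span the membranes, and plakoglobin (Jup), plakophilins and desmoplakin (Dsp) tie them to keratin filaments. Beta connexins form gap junction channels. In the palate these genes are known from the oral and nasal epithelium and the periderm that cover the shelves, while the shelf core is mesenchyme.

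Promoter windows are shown for 4 members picked by their results, so they do not represent the family. Dsp is the most highly counted member, and Cldn3 is the claudin with the smallest p among those that rose. Epcam is the member of the cell surface group that rose least, and Cldn11 is the claudin that fell most. The windows run from 250 bases before to 50 bases after the transcription start in RefSeq on GRCm38.p6. They are written 5′ to 3′ along the gene's strand. Capitals mark CACCTG or its reverse complement CAGGTG, the E2 box that Snail and Zeb repressors of Cdh1 bind.
Dsp, chr13:38151044-38151343, plus strand: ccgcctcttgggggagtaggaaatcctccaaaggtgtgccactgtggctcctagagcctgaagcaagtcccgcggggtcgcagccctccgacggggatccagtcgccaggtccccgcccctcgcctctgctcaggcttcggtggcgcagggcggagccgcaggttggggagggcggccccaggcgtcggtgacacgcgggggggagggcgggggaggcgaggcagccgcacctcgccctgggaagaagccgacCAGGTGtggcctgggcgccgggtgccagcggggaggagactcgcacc
Cldn3, chr5:134985964-134986263, plus strand: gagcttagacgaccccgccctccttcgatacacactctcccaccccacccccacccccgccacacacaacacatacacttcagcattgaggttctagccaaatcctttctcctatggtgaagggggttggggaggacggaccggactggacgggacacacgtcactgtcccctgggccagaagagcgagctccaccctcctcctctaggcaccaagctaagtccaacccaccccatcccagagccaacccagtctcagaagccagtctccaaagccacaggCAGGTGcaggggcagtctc
Epcam, chr17:87635729-87636028, plus strand: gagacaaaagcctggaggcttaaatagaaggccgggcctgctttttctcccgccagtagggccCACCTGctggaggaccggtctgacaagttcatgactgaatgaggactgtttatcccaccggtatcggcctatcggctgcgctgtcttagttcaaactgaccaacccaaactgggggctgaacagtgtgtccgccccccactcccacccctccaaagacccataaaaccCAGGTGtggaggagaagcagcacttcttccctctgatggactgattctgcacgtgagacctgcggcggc
Cldn11, chr3:31149670-31149969, plus strand: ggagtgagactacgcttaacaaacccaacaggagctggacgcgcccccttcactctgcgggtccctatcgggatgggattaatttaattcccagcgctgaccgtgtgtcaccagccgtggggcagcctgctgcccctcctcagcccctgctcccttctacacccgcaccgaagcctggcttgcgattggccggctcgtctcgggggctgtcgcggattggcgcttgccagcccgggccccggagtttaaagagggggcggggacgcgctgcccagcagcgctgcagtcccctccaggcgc
Of the members, 28 had a window in that table, with 41 windows in all because some genes have several starts and some windows overlap. The E2 box was present in 14 of those 41 windows (34.1%), against 20.2% of all 32851 windows of the same length. By gene, 9 of the 14 members that rose in the mutant and have a window held it, against 3 of the other 14. Jup, Cldn1, Cldn2, Cldn10 and Gjb5 rose without it. The other 14 include Cldn14, Cldn16, Cldn17, Cldn18, Cldn19, Cldn24 and Gjb1, which had too few counts to be tested. No share by gene was computed over all genes. Cdh1, Perp, the plakophilins and the desmosomal cadherins had no window. The grainyhead-like motif AACNGGTT or its reverse complement AACCNGTT was in 2 member windows (4.88%) against 2.09% of all windows. Neither motif contains the other, and a match is a description of the letters only.

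Library totals were 53331397, 52668242 and 53049171 counts in the mutants and 81950407, 105125474 and 134813429 counts in the controls, so each control was deeper than each mutant. Shox2 had 5.3, 4.12 and 3.13 CPM (read counts scaled to library size, with TMM factors) in mutant replicates 1, 2 and 3, against 88.2, 68.2 and 81.7 CPM in the controls. Nkx2-5 had no count in any mutant, against 8, 0 and 4 counts in the controls. Among counts of 5 to 50, even numbers made up 99.7% in mutant replicate 1 and between 63.6% and 73.0% in the other 5 libraries. Control replicate 2 had the lowest level of most epithelial members: among 34 members with a mean of at least 1 CPM, 28 were lower there than the average of the other controls, with a median ratio of 0.651.

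The adhesion genes were mostly higher in the mutant palate. Of the 50 members, 30 rose, 2 fell, 8 were tested without passing and 10 had too few counts to be tested (edgeR quasi-likelihood test, Benjamini-Hochberg adjusted p threshold 0.05). Across all 16604 genes tested, 24.1% were called higher and 21.7% lower, 45.8% in either direction. The median log2 fold change was 1.76 over the 40 members tested and -0.004 over all genes tested. Among the 40 tested members, the libraries of the groups did not overlap for 32 higher in the mutant and 2 lower, where 29.7% and 29.2% of all genes tested were apart in those directions. The desmosomal plaque, the beta connexins and the cell surface group with Tjp3 and Ocln rose in all 15 of their tested members, and the claudins were the mixed family. Without control replicate 2 the median over the members was 1.38. In bulk tissue, a larger share of epithelial cells and more RNA per epithelial cell cannot be told apart.

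**Figure D1:**
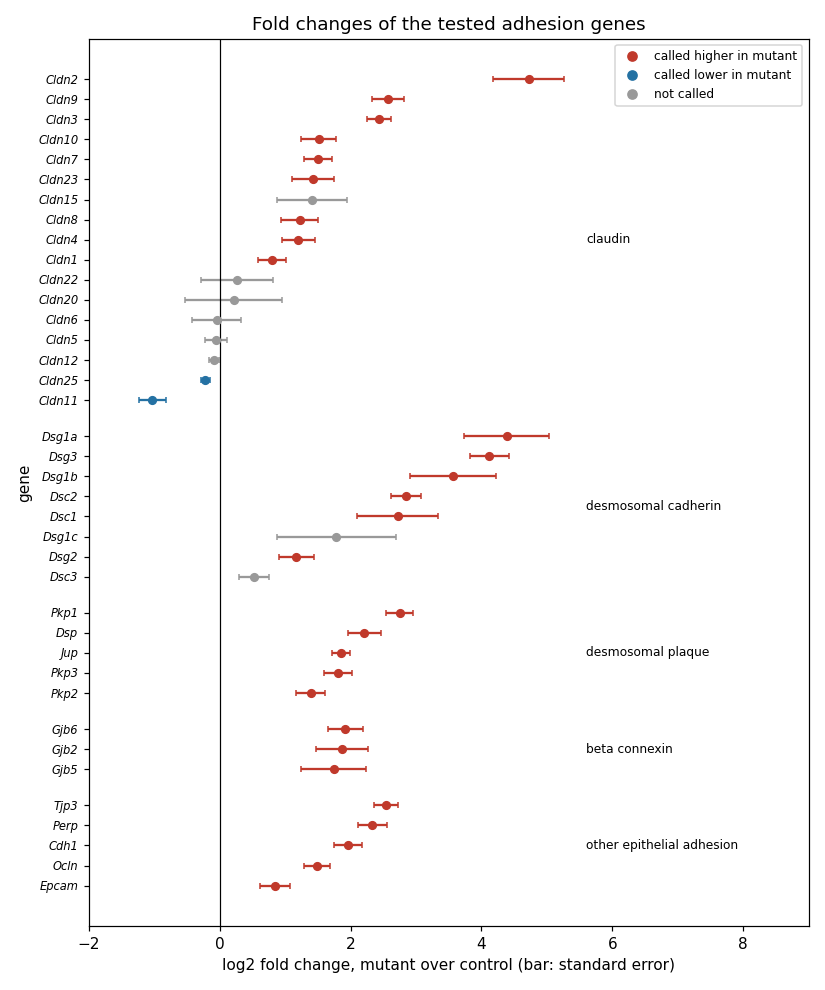
Log2 fold change of mutant over control for 38 tested adhesion genes, by family, with bars for the standard error. The claudins run from -1.03 for Cldn11 to 4.72 for Cldn2, whereas the members of the desmosomal plaque lie between 1.39 and 2.75.

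The desmosomal plaque rose in every member. Dsp, which anchors keratin filaments at the desmosome, had 1697, 1518 and 1663 CPM in mutant replicates 1, 2 and 3, against 445, 220 and 387 CPM in control replicates 1, 2 and 3. The groups were far apart, with the lowest mutant over 3 times the highest control. Its mean was 1626 ± 94.7 CPM in mutants and 351 ± 117 CPM in controls (SD, n = 3 each). The log2 fold change was 2.21, with an SE of 0.25 and an edgeR adjusted p of 0.000628. Pkp1, the plakophilin of stratified epithelia, had 403, 448 and 542 CPM in mutants and 67.7, 51.7 and 87.1 CPM in controls. It changed most of the 5 plaque genes (log2 fold change 2.75, SE 0.21, edgeR adjusted p = 0.000234). Jup, which sits in both desmosomes and adherens junctions, had 430, 418 and 483 CPM in mutants and 135, 98.1 and 136 CPM in controls (1.85, SE 0.14). Pkp3, a plakophilin found in most epithelia, had 103, 105 and 128 CPM in mutants and 37.7, 21.8 and 36.4 CPM in controls (1.81, SE 0.21). Pkp2, the plakophilin of heart muscle and simple epithelia, was low throughout and rose least, with means of 9.65 ± 1.38 CPM in mutants and 3.67 ± 0.878 CPM in controls. Perp, a membrane protein that desmosomes of stratified epithelia need, had 382, 450 and 557 CPM in mutants and 108, 65.5 and 104 CPM in controls (2.33, SE 0.22, edgeR adjusted p = 0.000406).

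**Figure D2:**
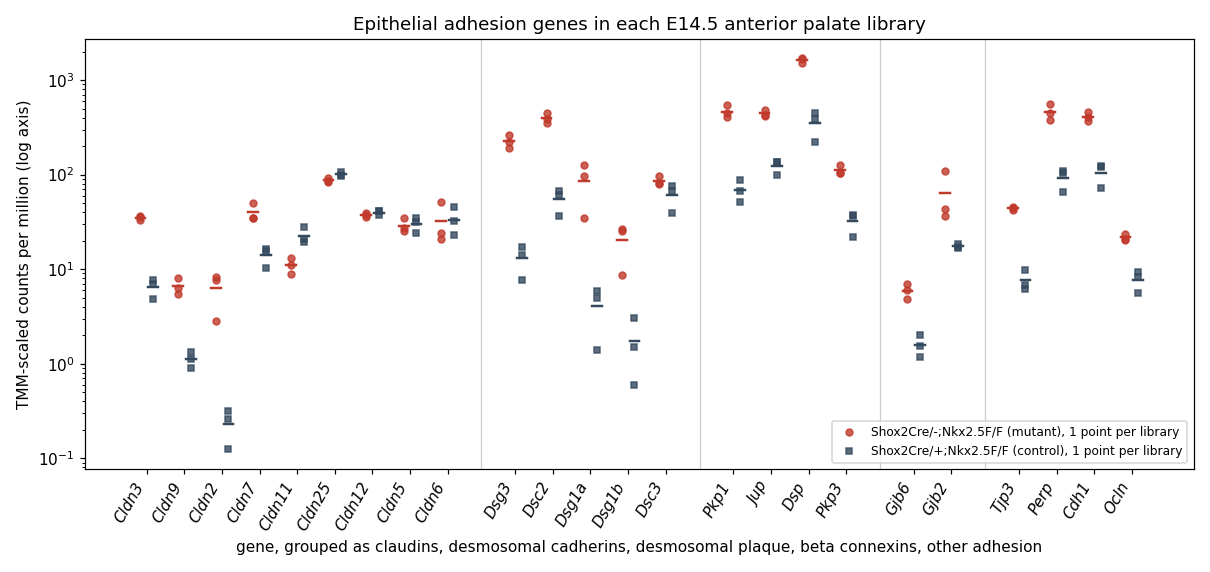
CPM on a log axis in each library for 24 adhesion genes, with a short line at each group mean. Mutant and control points are apart for Dsp, Dsg3, Dsc2 and Tjp3 and overlap for Cldn5, Cldn6 and Cldn12.

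The desmosomal cadherins did not rise in step. Desmoglein 3 (Dsg3), the desmoglein of the lower layers of stratified epithelium, had 191, 222 and 263 CPM in mutants and 14, 7.73 and 17.2 CPM in controls. This was a 17.4-fold difference of the means (log2 fold change 4.12, SE 0.30, edgeR adjusted p = 0.000234), with every mutant over 10 times every control. Dsg2, the desmoglein that simple epithelia and heart also use, averaged 123 ± 21.9 CPM in mutants and 54.5 ± 19.8 CPM in controls (SD, n = 3 each). It rose by 1.17 on the log2 scale (SE 0.27, edgeR adjusted p = 0.0106). The ratio of Dsg3 to Dsg2 CPM was 1.29, 2.04 and 2.36 in mutants and 0.193, 0.232 and 0.298 in controls, so the order of these desmogleins was turned round. This pair, like the other ratios below, was chosen after the values were seen and is given without a test.

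The Dsg1 genes of the upper layers rose as well, but unevenly between mutant libraries. Dsg1a had 35.2, 95.6 and 125 CPM in mutants and 5.83, 1.4 and 4.97 CPM in controls (log2 fold change 4.39, SE 0.65, edgeR adjusted p = 0.00183). Dsg1b had 8.68, 25.6 and 26.7 CPM in mutants and 3.07, 0.594 and 1.5 CPM in controls (3.57, SE 0.66). In both, mutant replicate 1 was the lowest mutant and control replicate 2 the lowest control. Dsg1a, Dsg1b and Dsg1c are near-identical copies whose reads the authors' counting could split, so the split among them is uncertain. Their sum was 44.1, 121 and 152 CPM in mutants and 9.14, 2 and 6.53 CPM in controls.

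Among the desmocollins the pool turned from about equal parts to mostly Dsc2. Dsc2, the widely expressed desmocollin, had 350, 387 and 454 CPM in mutants and 66.6, 36.6 and 61.6 CPM in controls (log2 fold change 2.85, SE 0.23, edgeR adjusted p = 0.000265). Dsc3, the desmocollin of basal layers, had 82, 79.8 and 97.9 CPM in mutants and 75.9, 39 and 66.4 CPM in controls. Dsc3 did not pass (0.52, SE 0.23, edgeR adjusted p = 0.101), although each mutant lay above each control. It passed without control replicate 1, where its log2 fold change was 0.70 (edgeR adjusted p = 0.042), and with DESeq2 (adjusted p = 0.0466). Its log2 fold change was 0.28 without control replicate 2 (edgeR adjusted p = 0.109) and 0.42 without mutant replicate 3 (edgeR adjusted p = 0.253), and neither passed. The Dsc2 to Dsc3 ratio was 4.27, 4.85 and 4.63 in mutants and 0.879, 0.938 and 0.927 in controls. Within each group this ratio varied less than either gene did. Control replicate 2, the lowest library in both genes, had a ratio like those of the other controls. The 2 genes are neighbours in the desmosomal cadherin cluster, Dsc3 at chr18:19960930-20002351 and Dsc2 at chr18:20030633-20059554, both on the minus strand (GENCODE M21, GRCm38). Dsc1, of the outermost layers, stayed near or below 1 CPM and rose (2.72, SE 0.62).

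Shares computed from CPM per kilobase of exon show the same shift in each pool. Dsc2 made up 82.3% ± 0.876 of desmocollin transcripts in mutants and 48.3% ± 0.88 in controls (SD, n = 3 each). Dsg2 made up 33.3%, 19.3% and 16.8% of desmoglein transcripts in mutants, against 69.3%, 72.8% and 65.2% in controls, and Dsg3 made up 48.2% ± 2.39 in mutants and 19.6% ± 3.59 in controls. Among plakophilins, Pkp1 was 73.7% ± 1.15 in mutants and 59.1% ± 3.6 in controls. The shares of Dsc2, Dsc3 and the plakophilins do not overlap between the groups, while that of the scarce Dsc1 does, and the largest spread within a group was that of the Dsg1 copies, with 15.7%, 34.1% and 36.1% in mutants.

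**Figure D3:**
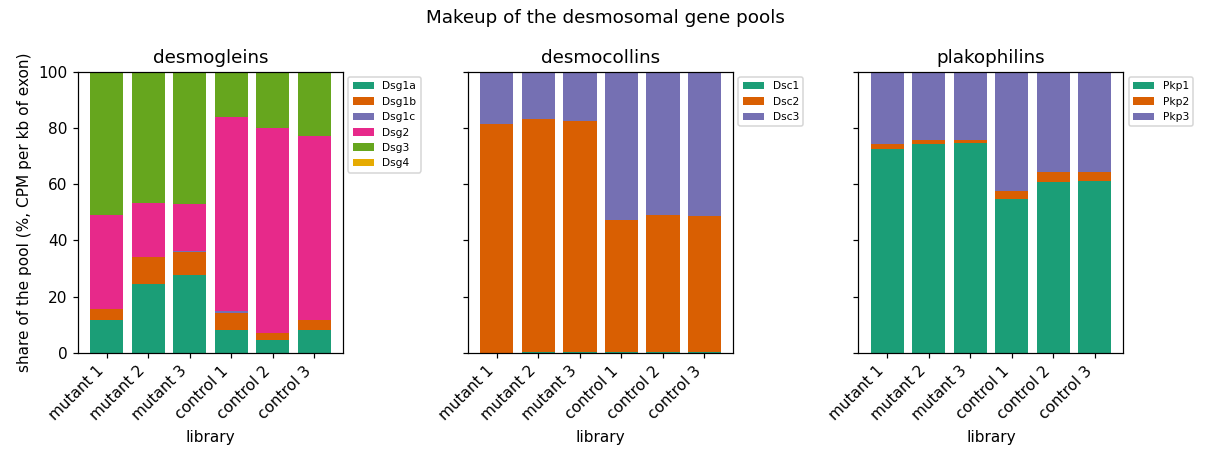
Share of each gene in the desmoglein, desmocollin and plakophilin pools, in percent of CPM per kilobase of exon, 1 stacked bar per library. Dsc2 fills 81.3% to 83.1% of the desmocollin bar in mutants and 47.3% to 48.9% in controls, and Dsg2 is the largest desmoglein in each control.

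Of the 25 claudins, 9 rose, 2 fell, 6 did not pass and 8 were too low to test. Cldn3, a sealing claudin of simple and glandular epithelia, had 33, 35.5 and 36.6 CPM in mutants and 7.72, 4.81 and 6.98 CPM in controls (log2 fold change 2.43, SE 0.18, edgeR adjusted p = 0.000236). Cldn9, known from the inner ear in mouse, had 5.41, 6.25 and 8.06 CPM in mutants and 1.32, 0.892 and 1.11 CPM in controls (2.57, SE 0.25). Both were tight within their groups. Cldn2, which forms cation and water channels in leaky epithelia, had 2.8, 7.75 and 8.19 CPM in mutants and 0.124, 0.317 and 0.257 CPM in controls. It had the largest fold change of the tested claudins (4.72, SE 0.54, edgeR adjusted p = 0.00072), and its control level rested on 10, 32 and 34 counts per library. Cldn7, another claudin of most epithelia, had 50, 34.6 and 34.8 CPM in mutants and 16.5, 10.2 and 15.4 CPM in controls, a 2.83-fold difference of the means (edgeR adjusted p = 0.00184). The other claudins that rose were Cldn1, Cldn4, Cldn8, Cldn10 and Cldn23, with log2 fold changes of 0.80 to 1.51. Cldn1, the claudin of the epidermal barrier, had the smallest of these and was not called without control replicate 2 (edgeR adjusted p = 0.0559).

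Cldn11, the claudin of myelin in the central nervous system and of Sertoli cells, fell in the mutant. It had 8.83, 13.2 and 11.2 CPM in mutants and 20.7, 27.8 and 19.5 CPM in controls (log2 fold change -1.03, SE 0.20, edgeR adjusted p = 0.00501). Every mutant was below every control. The other member called lower, Cldn25, differed little, with 83.8, 92.2 and 85.9 CPM in mutants and 99.3, 107 and 97.9 CPM in controls (-0.22, SE 0.07, edgeR adjusted p = 0.0361). It lost its call when any of mutant replicates 1 or 3 or control replicates 2 or 3 was left out (edgeR adjusted p from 0.0658 to 0.12) and with library size scaling alone (adjusted p = 0.107). In RefSeq, Cldn25 is an older symbol of 2 genes, Cldn25-ps and Cldnd1, and the sources used here do not tell which of them was counted.

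Several well-expressed claudins did not pass. Cldn6, a claudin of embryonic epithelia, had 51.7, 20.9 and 24 CPM in mutants and 45.2, 23 and 32 CPM in controls (log2 fold change -0.05, SE 0.38, edgeR adjusted p = 0.921). Replicate 1 was the highest library in each group, and the groups overlapped. Cldn9 is its neighbour on chromosome 17 (Cldn6 at chr17:23679249-23682446, plus strand, and Cldn9 at chr17:23682584-23684026, minus strand), and Cldn9 rose. Cldn5, the claudin of endothelium, had 25.1, 34.6 and 27.1 CPM in mutants and 24.1, 34.8 and 31.8 CPM in controls (-0.06, SE 0.17), in overlapping ranges. Of the 8 endothelial markers, 0 passed with edgeR, 0 had an unadjusted p under 0.05, and 0 passed with DESeq2 or limma-voom; up to 2 were called higher under 3 other settings. Their summed level was 549 to 727 CPM in mutants and 467 to 616 CPM in controls. Cdh5 and Kdr differed by 0.31 (SE 0.14) and 0.24 (SE 0.16) on the log2 scale, mutant over control. Cldn12, a claudin with no single home tissue, had 39.6, 37.1 and 35.3 CPM in mutants and 41, 40.8 and 37.2 CPM in controls (-0.09, SE 0.08, edgeR adjusted p = 0.416).

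Among the other tight junction genes most rose and a few fell. Tjp3, a scaffold with epithelial expression, had 45.7, 44.3 and 42.5 CPM in mutants and 6.79, 6.24 and 9.79 CPM in controls (log2 fold change 2.54, SE 0.18, edgeR adjusted p = 0.000234). Ocln, the first transmembrane protein described at tight junctions, had 20.5, 20.9 and 23.8 CPM in mutants and 9.33, 5.66 and 8.22 CPM in controls (1.49, SE 0.20, edgeR adjusted p = 0.0012). Of 20 further tight junction genes, 14 rose, 2 fell and 4 did not pass, with a median log2 fold change of 0.50. Over all genes tested, 24.1% were called higher and 21.7% lower. Without control replicate 2 or without control replicate 3, 9 of the tight junction genes rose. F11r, an adhesion molecule of epithelium, rose by 1.04 (SE 0.10) and cingulin (Cgn), a cytoplasmic linker, by 1.45 (SE 0.22). Jam3 and Amot were the members that fell. Jam3, a junctional adhesion molecule also found outside epithelia, had 47, 52.1 and 51.9 CPM in mutants and 79.5, 88.9 and 80.6 CPM in controls (-0.72, SE 0.08). Amot, a regulator at junctions, was lower as well (-0.60, SE 0.13).

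Cdh1 and Epcam, both markers of epithelium in general, rose by different amounts. Cdh1 had 461, 368 and 403 CPM in mutants and 123, 72 and 121 CPM in controls (log2 fold change 1.96, SE 0.21, edgeR adjusted p = 0.000547). Epcam, an epithelial adhesion molecule that binds claudins, had 241, 146 and 178 CPM in mutants and 127, 77.2 and 111 CPM in controls (0.84, SE 0.23, edgeR adjusted p = 0.0201). Its groups lay closer together, and it was not called without mutant replicate 1 (edgeR adjusted p = 0.0535). The ratio of Cdh1 to Epcam CPM was 1.92, 2.52 and 2.26 in mutants and 0.97, 0.933 and 1.09 in controls. Per kilobase of exon, Epcam was level with Perp in controls (47.9 ± 11.6 and 47.2 ± 11.9 CPM per kilobase) and Dsp (36.3 ± 12.1) did not differ from them beyond the spread. In mutants Perp (237 ± 45.1) and Dsp (168 ± 9.8) stood above Pkp1, Cdh1 and Epcam (92.4 ± 14, 89.8 ± 10.2 and 85.8 ± 21.9), whose levels did not differ beyond their spread.

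Cadherins and nectins outside the epithelial set moved in both directions. Of 19 further adherens junction and cadherin genes, 9 rose, 4 fell and 6 did not pass, with a median log2 fold change of 0.24. Over all genes tested, 24.1% were called higher and 21.7% lower, so 4 of 19 falling is near the general share. The nectin gene Pvrl1 rose (0.91, SE 0.10), and the means of Pvrl4, another nectin gene, differed 2.82-fold. Cdh13, a cadherin with a lipid anchor, rose by 1.13 (SE 0.15), and Cdh3 rose by 1.08 (SE 0.20). Cdh11, the cadherin of mesenchyme and bone-forming cells, had 694, 648 and 608 CPM in mutants and 866, 940 and 796 CPM in controls (-0.42, SE 0.09, edgeR adjusted p = 0.00993). Cdh4 (-1.07, SE 0.20), Ctnna2 (-0.92, SE 0.16) and Pvrl3 (-0.36, SE 0.11) were the other genes that fell. Cdh2, the mesenchymal and neural cadherin, did not pass, and the Cdh1 to Cdh2 ratio was 4.43, 3.79 and 4.36 in mutants and 1.16, 0.456 and 0.985 in controls. Of 10 Cdh1 repressors and related factors, 4 fell and 6 did not pass (median -0.39); 0 rose with edgeR, DESeq2 or limma-voom, and 0 had an unadjusted p under 0.05 with a higher mutant level, but 1 was called higher with the GC and length trend removed. Snai2, a Snail family repressor, had 60.6, 59.5 and 57.7 CPM in mutants and 95.1, 89 and 81 CPM in controls (-0.58, SE 0.08, edgeR adjusted p = 0.00118). Twist2 fell as much as Snai2 (-0.58, SE 0.16, edgeR adjusted p = 0.0201). Twist1 (-0.44, SE 0.11) and Tcf3 (-0.33, SE 0.08) fell less, while Zeb1, Zeb2 and Snai1 did not pass. Twist1 is also in the list of mesenchyme markers given below.

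All 5 tested beta connexins rose. Gjb6 had 6.94, 4.86 and 6.03 CPM in mutants and 2, 1.17 and 1.54 CPM in controls (log2 fold change 1.92, SE 0.27, edgeR adjusted p = 0.00146). Gjb6 pairs with Gjb2 in the inner ear and skin, and its lowest mutant lay above its highest control. Gjb2, the highest of the family per kilobase of exon in both groups, had 110, 36.9 and 43 CPM in mutants and 17.1, 16.6 and 18.5 CPM in controls (1.87, SE 0.40, edgeR adjusted p = 0.00786). Mutant replicate 1 stood 2.77 times above the mean of the other mutants in Gjb2. Gjb5 was near 1 CPM and lost its call without mutant replicate 1 or 2 and without control replicate 2 or 3 (edgeR adjusted p from 0.0553 to 0.08). Gjb1, a connexin of liver and Schwann cells, had 0, 16 and 8 counts in mutants and none in controls. Against a floor of 3 counts over the control group, the mutant group was 15.4-fold higher. Mutant replicate 1 was at 0 like the controls. The difference was 7.71-fold without mutant replicate 2 and 23.3-fold without mutant replicate 1. These folds take the mutant counts as exact, so they are not lower bounds, and they cover no spread between libraries. Of 12 tested alpha, gamma and delta connexins and pannexins, 10 did not pass and 2 fell, where 21.7% of all genes tested were called lower. The 2 were Gjc1 (-0.68, SE 0.09) and Panx3 (-2.83, SE 0.66), a pannexin of bone and cartilage cells. None of the 12 was called higher with edgeR or limma-voom, and 1 had an unadjusted p under 0.05 in that direction. DESeq2 called 1 higher, and 8 settings in all called up to 2. Gja1, a widely expressed connexin, missed the threshold (0.20, SE 0.07, edgeR adjusted p = 0.0523).

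Epithelial markers outside the adhesion set were higher too. All 15 markers of a general epithelial list (keratins and factors such as Trp63 and Grhl2) rose, with a median log2 fold change of 1.58, and their summed level was 6098 to 6810 CPM in mutants and 1255 to 2069 CPM in controls. Of 12 hemidesmosome and basement membrane genes, 11 rose (median 1.55), among them Col17a1, a hemidesmosome collagen, by 2.34 (SE 0.23), and of 10 tested transcription factors of epithelial junctions 9 rose (median 1.79), among them Ovol1 by 2.84 (SE 0.30). Ehf (1.78, SE 0.18) and Elf3 (2.60, SE 0.24) rose with them. These lists share Krt5, Krt14, Trp63, Grhl2 and Elf3. The part of these markers in the rise of the adhesion genes was not tested. As a description, each member's log2 level was set against the mean log2 level of the 15 markers in the same library, for the 34 members with a mean of at least 1 CPM. On that scale 11 members were higher in every mutant than in every control and 12 were lower in every mutant, where 3.86% and 88.0% of all genes at that level were so, since the markers themselves rose by 1.77 on average.

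Relative to the epithelial markers, desmosome genes lay on both sides, and some overlapped between the groups. Dsg1a (2.63), Dsg3 (2.40), Cldn2 (2.38), Dsc2 (1.12), Pkp1, Tjp3 (0.78), Cldn9 (0.69), Cldn3 (0.66), Perp (0.57), Dsp (0.50) and Cdh1 (0.22) were higher in every mutant, with the mean log2 difference of mutants minus controls in parentheses for all but Pkp1. Jup (0.09) and Pkp3 (0.07) lay close to the markers, in overlapping ranges, but were higher in every mutant (0.44 and 0.42) when the median of the list was used in place of its mean. Ocln (-0.27), Cldn8 (-0.49), Cldn4 (-0.53), Dsg2 (-0.55), Epcam (-0.93), Cldn1 (-1.02) and Dsc3 (-1.21) were lower in every mutant relative to the markers, although all but Dsc3 had risen in CPM. Cldn5, Cldn12, Cldn6, Cldn25 and Cldn11 were lower still, with differences of -1.83 to -2.80. With that median, 17 members were higher in every mutant and 8 lower. Ocln turned to 0.08, and Cldn8 (-0.13), Dsg2 (-0.19) and Cldn1 (-0.67) then overlapped between the groups. Cldn7 and Cldn10, which overlapped either way, turned to 0.08 and 0.05, against -0.27 and -0.31 with the mean.

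**Figure D4:**
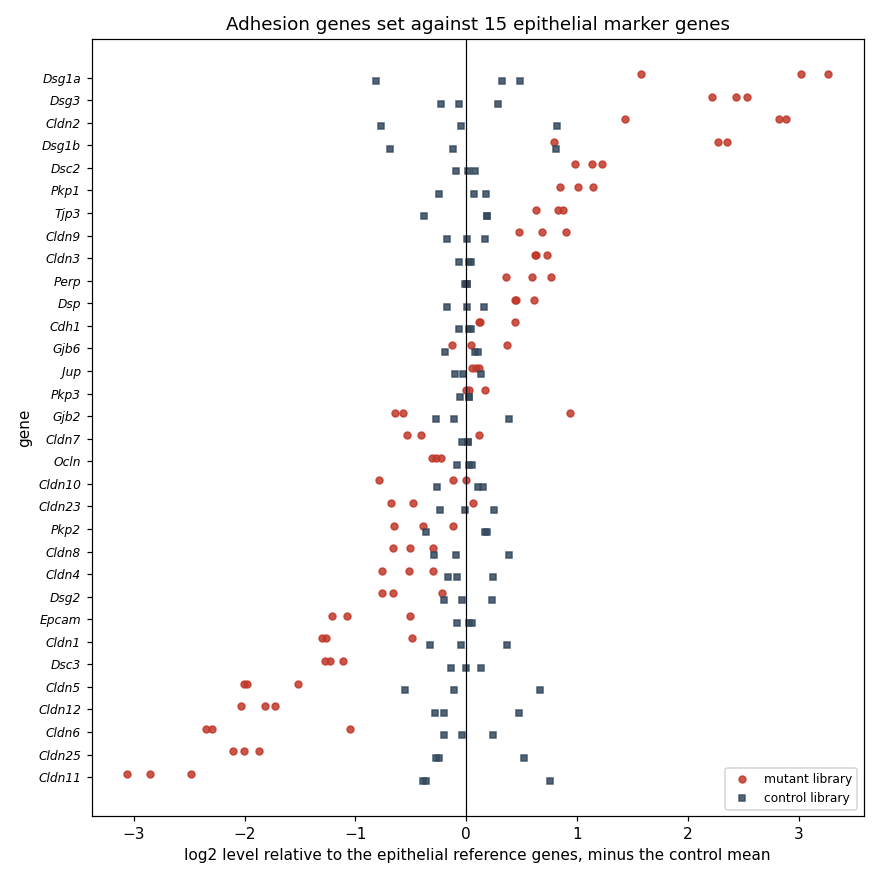
Log2 level of each of 32 adhesion genes minus the mean log2 level of 15 epithelial marker genes in the same library, drawn relative to the control mean. Mutant points for Dsg3 and Dsc2 lie right of all control points and those for Dsc3, Epcam and Cldn11 lie left of them.

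Markers of other epithelial states moved with the members. Of 13 tested genes of stratified and cornified epithelium, 11 rose and 2 did not pass (median 4.12), and 7 rose with limma-voom. The list summed to 1372 to 4172 CPM in mutants and 122 to 192 CPM in controls. Krt10 (0.15, SE 0.48) and Lor (0.27, SE 0.34) were those that did not pass. Krt1 rose with overlapping groups, at 12.7, 226 and 367 CPM in mutants and 13, 5.44 and 13.8 CPM in controls. Krt13, a keratin of oral epithelium, had 301, 1030 and 1541 CPM in mutants and 3.33, 4.6 and 8.18 CPM in controls. Envoplakin (Evpl), which joins desmosomes to the cornified envelope, had 103, 119 and 148 CPM in mutants and 25.5, 15 and 23.4 CPM in controls (2.53, SE 0.22). Mutant replicate 1 was the lowest mutant in both, as it was in Dsg1a, Dsg1b and Cldn2, where it reached 0.319, 0.332 and 0.351 of the mean of the other mutants. It was the highest mutant in Cldn1, Cldn6 and Gjb2. All 6 tested genes of ciliated cells rose, with sums of 557 to 708 CPM in mutants and 33.6 to 149 CPM in controls. Of the lung and airway list, 3 of 3 tested genes rose, with sums of 9.37 to 16.5 CPM in mutants and 0.829 to 1.98 CPM in controls, while Scgb1a1 had no count in any library and Cldn18, a claudin of lung and stomach, had none either. Of 6 olfactory and nasal genes 3 rose, with sums of 154 to 187 CPM in mutants and 60.8 to 127 CPM in controls. All 6 macrophage markers rose, with sums of 193 to 306 CPM in mutants and 51.2 to 82.1 CPM in controls. Of 8 mesenchyme markers 2 fell and 6 did not pass with edgeR, 1 of them higher at an unadjusted p under 0.05; 6 settings, DESeq2 and limma-voom among them, called 1 higher, and 5 were called lower without replicate 1 of both groups. The list had sums of 14902 to 15958 CPM in mutants and 9843 to 19444 CPM in controls. Of 8 markers of myelinating glia, Mbp and Erbb3 rose and 6 did not pass, with sums of 202 to 249 CPM in mutants and 163 to 195 CPM in controls. With edgeR 24.1% of all genes tested were called higher and 21.7% lower, so 2 of 8 markers in 1 direction is near the general share. The part of these cell types in the adhesion results was not tested.

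**Figure D5:**
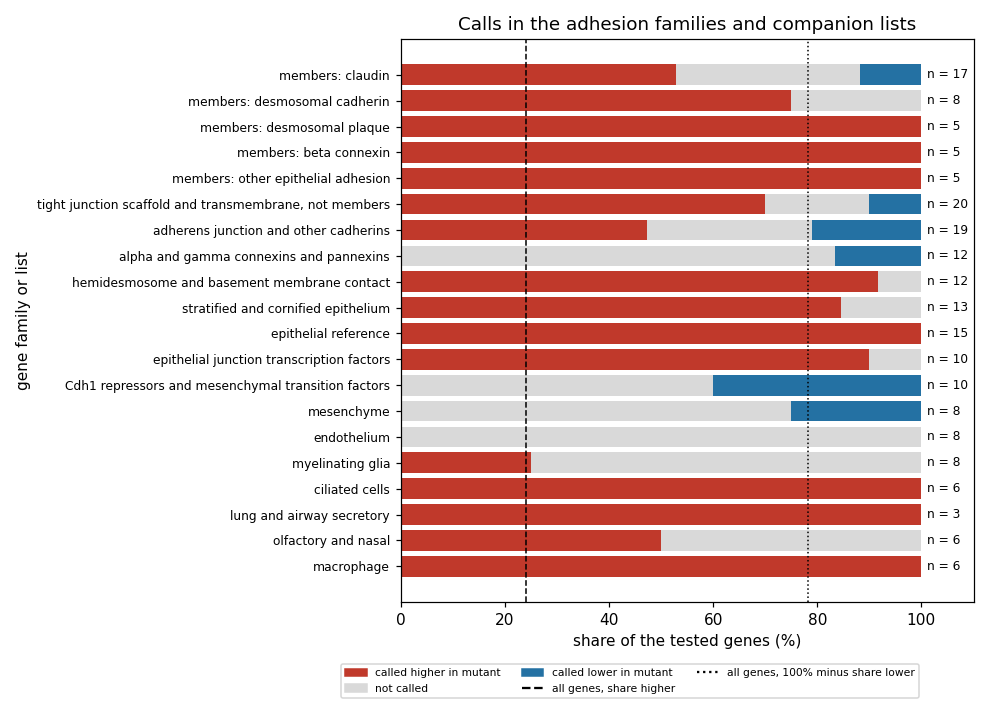
Share of tested genes called higher, not called and called lower in the 5 adhesion families and 15 companion lists, in percent, with vertical lines for the shares over all genes tested. The desmosomal plaque, beta connexin and epithelial reference rows are entirely higher, and the endothelium row has no call.

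The remaining members were scarce. Cldn13, Cldn14, Cldn16, Cldn17, Cldn18, Cldn19, Cldn24, Cldn26 (Tmem114 in GENCODE), Dsg4 and Gjb1 were not tested, and none exceeded 22 counts in a library. Cldn15, Cldn20, Cldn22 and Dsg1c were tested below 1 CPM and did not pass. Cldn22 lies wholly inside Wwc2 on the opposite strand, so its reads cannot be told apart from those of Wwc2 without strand. Antisense overlaps of exons also touch Dsg2, Dsp, Cldn3, Cldn19 and Tjp3.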

How the data were processed

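Bulk RNA was sequenced from E14.5 anterior palate, 3 libraries per genotype. Each library has a deposited table of raw read counts by gene symbol; HISAT2 and StringTie and the builds mm9 and mm10 are named per the submitters' processing notes, and, per the file headers, HISAT2 alignments are named for 4 libraries. For the counting program, strand setting and annotation the sources used here name nothing. Totals of 52668242 to 134813429 counts set the counting error. Low counts are mostly even, so a floor set on raw counts may understate counting error. Such a floor covers no spread between libraries.

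Counts were analysed in R 4.3.3 with edgeR 4.0.16: filterByExpr by group, TMM scaling, quasi-likelihood F test of mutant against control without covariates, over all 16604 genes kept, Benjamini-Hochberg threshold 0.05. Standard errors are the absolute log2 fold change over the square root of F. For levels relative to epithelial markers, 0.1 was added to CPM. The fits were tested on simulated data. GENCODE M21 (GRCm38) gave positions and exon lengths, matching 23063 of 23420 symbols. Replicate numbers are shared between the groups but were not taken to pair the libraries.

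Values are given for up to 4 called members per family by smallest p, called members against their family, tested members of at least 1 CPM that did not pass and members absent from 1 group; other members named with values were chosen after their values were seen. Companion lists follow the same kind of rule. The members and all lists were chosen with earlier results of these data known. Alternatives were limma-voom (limma 3.58.1), DESeq2 1.42.0, other scalings and filters, a replicate block, thinning to the smallest library, halved counts, left-out libraries and, added after seeing the data, removal of a GC and length trend. The values of 2 members are not reported here; they stay in the counts.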

Additional observations from a re-analysis of the deposited data

How the results depend on the processing

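The count of 30 members called higher ranged from 28 to 33 over 17 alternatives, and 26 of the 30 were called higher under every alternative. Dsc1 is not among the 26 because a filter of 1 CPM in 3 libraries left it untested, and it lost no call. The count over all genes stayed within 1.5 times. The count of 2 called lower was 1 with library size only, upper-quartile scaling, a filter of 1 CPM in 3 libraries, or the GC and length trend removed (where Cldn25 had no match), and 1 to 2 with single libraries left out; Cldn11 was lower throughout. The median log2 fold change over tested members was 1.63 with the GC and length trend removed and 1.38 to 1.84 with single libraries left out, lowest without control replicate 2. Of 609 fold changes of 36 members under alternatives, 582 kept direction and side of the threshold. The 15 lost calls were of Cldn25 (7), Gjb5 (5), Epcam (2) and Cldn1 (1), and the 5 gained were of Dsc3 (adjusted p 0.0354 to 0.0473). The 7 reversed values were all of genes that did not pass: Cldn5 was 0.01 and Cldn6 0.02 with library size only, and with libraries left out Cldn5 ran from -0.22 to 0.05, above 0 without mutant replicate 1 (0.03) or control replicate 2, and Cldn6 from -0.57 to 0.21, above 0 without mutant replicate 2 (0.18) or 3 (0.12) or control replicate 1. The Ocln level relative to the markers was 0.08 with the list's median. Epcam lost its call with the GC and length trend removed (adjusted p = 0.0572), and Gjb5 with the replicate block (adjusted p = 0.0504). Samples with the same replicate number correlated at 0.02 to 0.08 in their deviations from group means, and those with different numbers at -0.09 to 0.05. These low values do not settle whether the numbers pair the samples, and they were not taken to. With the replicate block 30 members were called higher and 2 lower, with a median of 1.73. The cause of these changes was not tested. Members under about 1 CPM rest on few counts, and depth and genotype coincide, although thinning to the smallest library also gave 30 and 2.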
